A study of Mus musculus with 12 samples.

Results

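Interferon-inducible genes were followed in the livers of mice with severe acute pancreatitis (SAP) and of control mice. The set holds 53 genes, chosen by symbol from a table of 55367 symbols: transcription factors of the interferon response, nucleic acid sensors, antiviral effectors and the interferon-inducible GTPases. SAP livers (6 libraries, numbered 10 to 15) came from wild-type Balb/c mice aged 6 weeks and labelled with caerulein, a peptide that drives the exocrine pancreas to oversecrete. The series' design text speaks of a pair of mouse models, and which models it means is not stated, so whether the SAP libraries are all of 1 model is uncertain. Control livers (6 libraries, numbered 3 to 8) came from wild-type Balb/c mice of the same age with the treatment given as control. Whether each library is 1 mouse is not stated, and the p-values reflect only how the libraries differ among themselves. Levels are in TPM, a share of all transcripts corrected for transcript length, which carries no sequencing depth, so no counting error can be given. In bulk liver, fewer cells of a type and less RNA per cell cannot be told apart.

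Interferons are secreted proteins that warn cells of infection. Type I interferons act through a receptor of Ifnar1 and Ifnar2 chains and the kinases Jak1 and Tyk2, which activate a complex holding Stat2 and Irf9 that binds interferon-stimulated response elements (ISRE) in promoters. Interferon gamma acts through its own receptor and on other promoter elements, the gamma-activated sites (GAS). In the liver, hepatocytes, Kupffer cells and sinusoidal endothelium can all respond, and the induced proteins block viral replication or attack the vacuoles of intracellular pathogens.

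Some libraries stood apart across both groups. Xist, a nuclear RNA, was at 4.59 to 17.1 TPM in 5 libraries (SAP 11, 13, 14 and 15, and control 5) and at 49.1 to 60.7 TPM in the other 7, so results are also given within those 7, called the high Xist libraries (2 SAP, 5 control). A list of 28 acute-phase genes took 22.5 to 36.8% of all TPM in SAP and 3.50 to 4.07% in control libraries, and TPM sums to a fixed total, so less is left for all other genes in SAP. Hepatocyte markers were abundant in all libraries, though 3 of 6 fell in SAP (Alb, Ttr and Serpina1a) and 1 rose (Apoa1). Hnf4a and Apob were called neither way. Of all tested genes 25.0% were called lower and 19.5% higher. The 6 markers summed to 36897 to 50856 TPM in SAP and 79552 to 90884 TPM in control livers. Most of this was Alb, at 21995 to 32403 TPM in SAP and 57713 to 69833 TPM in controls.

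The interferon-inducible genes were called higher in SAP livers in part, not as a block. Of the 53 genes, 44 reached 1 TPM in at least 6 of the 12 libraries and were tested. In SAP, 26 of the 44 rose, 1 fell and 17 did not pass the threshold (limma, Benjamini-Hochberg adjusted p under 0.05 over 11335 genes). Higher calls thus made up 59.1% of the tested members, against 19.5% of all tested genes, and lower calls 2.27% of members, against 25.0% of all genes. The median log2 change (SAP minus control, on the log2(TPM + 1) scale) was 0.51 for the 44 members and -0.03 for all tested genes. Changes were positive in 38 of the 44 members and in 5304 of all 11335 tested genes, so members that did not pass cannot be called unchanged. Among members, 12 had every SAP value above every control value, which is 27.3% of those tested, against 10.5% of all tested genes. Most changes were modest: 7 members rose by at least 1 on the log2 scale (15.9%, against 2.55% of all tested genes). The 26 that rose include 5 (Ifit1, Gbp4, Gbp9, Tgtp2 and Ifi44) that were under 1 TPM in at least 1 control library. Of these, Gbp9 and Ifi44 reached 1 TPM in 6 SAP and 2 control libraries. They were thus tested only because they were high in SAP, and their calls add little. The other 39 tested members were at 1 TPM or more in every control library, and 21 of them rose.

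**Figure D1:**
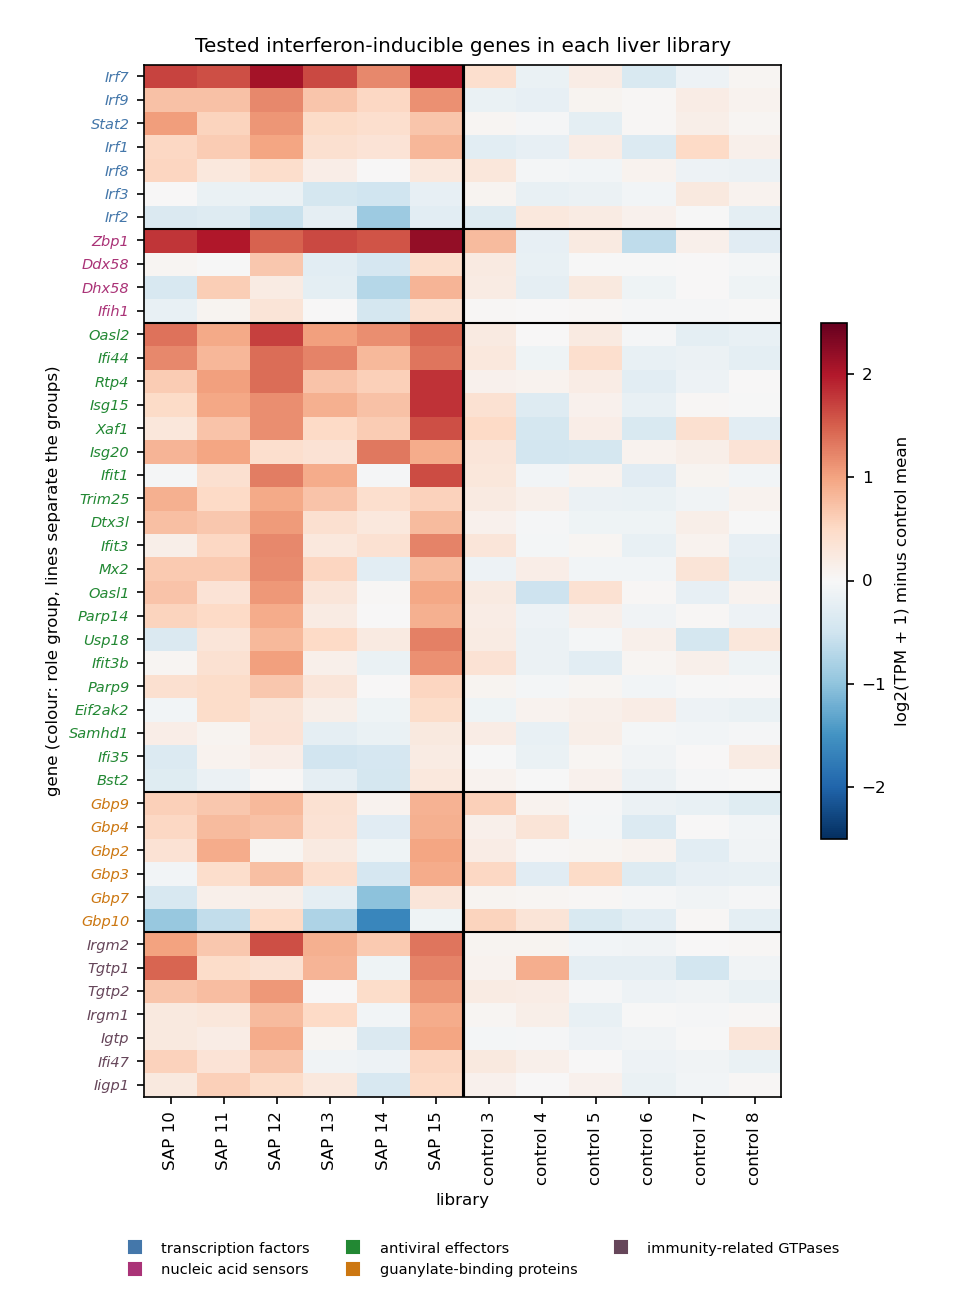
Difference of log2(TPM + 1) from the control mean for the 44 tested genes (rows, ordered by role group and change) in 6 SAP and 6 control libraries (columns). Red marks values above the control mean. Irf7 and Zbp1 are red in all 6 SAP libraries, while Ifih1 and Bst2 are pale in most.

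The transcription factors of the response split, with log2 changes from -0.44 (Irf2) to 1.70 (Irf7). Of 7 tested, 5 rose (71.4%, against 19.5% of all tested genes), 1 fell and 1 did not pass the threshold, with a median log2 change of 0.62. Irf7, the factor that amplifies type I interferon production, had a lowest, median and highest level of 26.5, 36.9 and 50.02 TPM in SAP livers, against 8.17, 10.7 and 15.03 TPM in control livers. The groups were well apart, and the log2 change was 1.70 ± 0.16 (SE; limma adjusted p = 2.28e-06). Irf9, the DNA-binding part of the complex that binds the ISRE, was at 17.4, 20.2 and 28.6 TPM in SAP, against 10.1, 12.2 and 13.5 TPM in controls. It rose by 0.84 ± 0.12 (SE; limma adjusted p = 8.90e-05), again with no overlap. Its partner Stat2 was at 26.4, 30.7 and 43.2 TPM in SAP, against 16.3, 20.1 and 21.7 TPM in controls. Stat2 did not overlap either and rose by 0.72 ± 0.12 (SE; limma adjusted p = 3.59e-04).

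Irf1, a factor induced directly by interferon gamma and by cytokines, was at 16.5, 19.6 and 26.3 TPM in SAP, against 9.87, 12.6 and 18.5 TPM in controls. It rose by 0.62 ± 0.15 (SE; limma adjusted p = 0.00482), and 4 of 6 SAP libraries lay above the highest control. Irf8, a factor of myeloid cells, was low, at 2.31 to 3.73 TPM in SAP and 1.96 to 2.99 TPM in control livers. Its rise of 0.28 ± 0.11 (SE; limma adjusted p = 0.0492) was at the edge of the threshold. When 1 library was left out the call held only without SAP 14 or control 3 (highest adjusted p = 0.101).

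Irf2, which competes with Irf1 for the same sites and can repress them, went the other way. It was at 14.1, 21.3 and 23.3 TPM in SAP, against 21.6, 28.2 and 33.1 TPM in controls, with 3 of 6 SAP libraries below the lowest control. Irf2 fell by 0.44 ± 0.13 (SE; limma adjusted p = 0.0164), the only member called lower. That call did not hold in the high Xist libraries (-0.42, adjusted p = 0.0814) or with TPM rescaled outside the acute-phase list (-0.04, adjusted p = 0.783), the highest of a range of 0.00901 to 0.783 over the alternatives. Irf3, which is present before any interferon signal and is activated by phosphorylation, was at 27.7, 34.4 and 39.7 TPM in SAP, against 34.4, 39.3 and 46.6 TPM in controls. Irf3 differed by -0.24 ± 0.10 (SE; limma adjusted p = 0.0679), which did not pass, and by 0.17 with TPM rescaled outside the acute-phase list. It was called lower without SAP 10 (adjusted p = 0.0319) or control 4.

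The upstream of 2 Irf1 promoter windows, each from 250 bases before to 50 after an annotated start, held the GAS core and no ISRE core. It is shown as an example of a promoter with the GAS core alone (RefSeq, GRCm38.p6, chr11:53769764-53770063, plus strand, read 5′ to 3′, with the GAS core TTCNNNGAA, which reads the same on both strands, in capitals).
Irf1: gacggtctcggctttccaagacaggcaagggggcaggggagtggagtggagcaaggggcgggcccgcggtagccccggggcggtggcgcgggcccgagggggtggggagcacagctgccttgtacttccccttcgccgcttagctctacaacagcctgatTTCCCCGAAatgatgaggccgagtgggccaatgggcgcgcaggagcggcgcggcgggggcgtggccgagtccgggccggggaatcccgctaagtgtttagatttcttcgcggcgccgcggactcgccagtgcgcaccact

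Sensors of foreign nucleic acid did not move together. Zbp1, a sensor of Z-form nucleic acid that can start necroptosis, had the largest log2 change of all 44 tested members. Its levels were 19.2, 22.8 and 31.96 TPM in SAP livers, against 3.65, 6.08 and 11.5 TPM in control livers. Every SAP library was above every control, and Zbp1 rose by 1.78 ± 0.21 (SE; limma adjusted p = 1.44e-05). The 3 cytosolic RNA sensors of the RIG-I family, which are themselves interferon-inducible, were not past the threshold. Ddx58, which encodes RIG-I, was at 6.99, 9.80 and 16.03 TPM in SAP, against 8.36, 9.57 and 11.5 TPM in controls, a log2 difference of 0.08 (95% confidence interval -0.27 to 0.43; limma adjusted p = 0.724). Dhx58, which encodes the regulator LGP2, was at 3.10, 5.67 and 11.02 TPM in SAP, against 4.69, 5.47 and 6.92 TPM in controls, a difference of 0.05 (-0.45 to 0.55; limma adjusted p = 0.880). In both genes SAP libraries lay on either side of the control range, so the spread was wider in SAP and the centres close. Ifih1, which encodes the long double-stranded RNA sensor MDA5, was at 4.31, 6.38 and 8.27 TPM in SAP, against 6.01, 6.16 and 6.33 TPM in controls, a difference of 0.02 (-0.24 to 0.29; limma adjusted p = 0.887). With TPM rescaled outside the acute-phase list, Ddx58 was at 0.46 (adjusted p = 0.0115) and Ifih1 at 0.38 (adjusted p = 0.00321), the lowest of ranges that reached 0.982 and 0.932 over the alternatives.

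**Figure D2:**
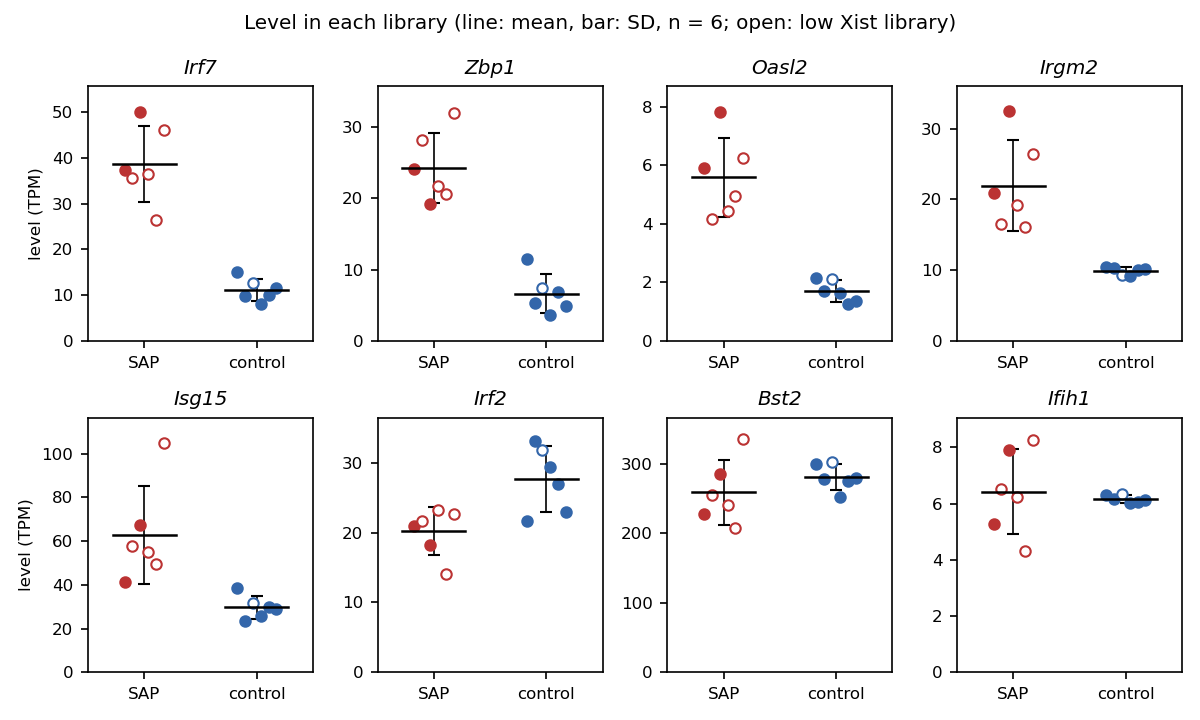
Levels in TPM (linear axes from 0) of 8 genes in 6 SAP and 6 control libraries, with the mean as a line and the SD as a bar; open points are low Xist libraries. Irf7, Zbp1, Oasl2, Irgm2 and Isg15 show no overlap between SAP and control, Irf2 lies lower in SAP with overlap, and Bst2 and Ifih1 spread on both sides of the controls.

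Antiviral effectors, the largest role group, made up most of the genes that rose. Of 26 members 20 were tested: 14 rose, 0 fell and 6 did not pass, with a median log2 change of 0.61. Higher calls made up 70.0% here and 71.4% of the transcription factors, against 19.5% of all tested genes. Oasl2, an oligoadenylate synthetase-like protein, was at 4.15, 5.43 and 7.81 TPM in SAP, against 1.25, 1.67 and 2.15 TPM in controls, and rose by 1.27 ± 0.14 (SE; limma adjusted p = 8.59e-06). Ifi44, a cytosolic protein of the interferon response, was at 2.56, 3.72 and 4.32 TPM in SAP, against 0.72, 0.845 and 1.70 TPM in controls, and rose by 1.14 ± 0.15 (SE; limma adjusted p = 3.41e-05). Trim25, the ubiquitin ligase that activates RIG-I, was at 17.6, 20.995 and 25.9 TPM in SAP, against 11.4, 12.9 and 15.2 TPM in controls. It rose by 0.68 ± 0.11 (SE; limma adjusted p = 1.80e-04). None of the 3 overlapped between groups, but Ifi44 reached 1 TPM in only 2 control libraries and passed the filter through SAP.

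Isg15, a ubiquitin-like modifier that is conjugated to viral and host proteins, was among the higher-level effectors. It was at 41.3, 56.5 and 104.8 TPM in SAP, against 23.3, 29.5 and 38.6 TPM in controls, and rose by 1.01 ± 0.19 (SE; limma adjusted p = 7.07e-04). SAP 15 held the top value and no SAP library fell into the control range. Its deconjugating protease Usp18, which also blocks signalling at the type I receptor, was at 6.60 to 22.3 TPM in SAP and 6.19 to 10.7 TPM in controls, a difference of 0.46 ± 0.22 (SE; limma adjusted p = 0.109) that did not pass. Without SAP 10 it was called higher. Rtp4, a transmembrane chaperone that restrains type I interferon responses, rose by 1.03, Isg20, an exonuclease that degrades viral RNA, by 0.81, and the ubiquitin ligase gene Dtx3l by 0.66, all without overlap. Parp9, the partner of Dtx3l in one complex, rose by 0.40 and Parp14, another ADP-ribosyltransferase, by 0.51.

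The Isg15 promoter is printed because its ISRE core repeats. In the same window (RefSeq, GRCm38.p6, chr4:156200769-156201068, minus strand, read 5′ to 3′), 3 overlapping matches to the ISRE core, which is TTTC, any 2 bases and TTTC, or GAAA, any 2 bases and GAAA on the other strand, start 78, 72 and 66 bases before the annotated start and are in capitals.
Isg15: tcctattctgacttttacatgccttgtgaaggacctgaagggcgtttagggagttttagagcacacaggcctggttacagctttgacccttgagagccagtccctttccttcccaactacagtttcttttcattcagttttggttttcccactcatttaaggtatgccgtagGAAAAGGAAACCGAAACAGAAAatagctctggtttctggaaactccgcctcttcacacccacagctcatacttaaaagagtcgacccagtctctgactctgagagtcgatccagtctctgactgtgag

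The Ifit genes encode proteins that bind viral RNA ends and block its translation. Ifit3 rose by 0.62 and Ifit1 by 0.70 (limma adjusted p = 0.0170 and 0.0437), each with 4 of 6 SAP libraries above the highest control. Ifit3b, at 1.16 to 4.31 TPM in SAP and 1 to 2.09 TPM in controls, was not past the threshold (0.43). In GENCODE M21, 51.2% of the 50-base windows of Ifit3 transcripts also occur in Ifit3b, so how reads were split between them is uncertain. Xaf1, a pro-apoptotic interferon target, rose by 0.82, the dynamin-like GTPase gene Mx2 by 0.60, and Oasl1, which represses Irf7 translation, by 0.57. Mx2, which GENCODE M21 annotates as a polymorphic pseudogene, was below the lowest control in 1 SAP library. Of these calls, 2 rested on few libraries. The Oasl1 call was lost without SAP 10, 12 or 15 or control 4 or 7 (highest adjusted p = 0.0630), and the Ifit1 call held only without SAP 10, 11 or 14 or control 3 (highest adjusted p = 0.0891 otherwise).

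The 6 tested effectors that did not pass the threshold included the one with the highest level of all members. Bst2, or tetherin, which holds budding virions at the cell surface, was at 208, 248 and 336 TPM in SAP, against 252, 278 and 302 TPM in controls. SAP libraries lay above, within and below the control range, and the difference was -0.13 ± 0.10 (SE; limma adjusted p = 0.311). Bst2 was called higher with quantile normalization (0.25, adjusted p = 0.0200) and with TPM rescaled outside the acute-phase list (0.28, adjusted p = 0.00652), within a range of 0.00652 to 0.548 over the alternatives. Samhd1, a dNTP hydrolase that starves reverse transcription, had the largest adjusted p among tested effectors. It was at 7.04, 9.27 and 11.04 TPM in SAP, against 7.30, 8.21 and 9.82 TPM in controls, a difference of 0.07 (95% confidence interval -0.16 to 0.31; limma adjusted p = 0.616). Ifi35 differed by -0.13 and the double-stranded RNA-activated kinase gene Eif2ak2 by 0.20.

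Bst2 carries the same promoter cores as genes that rose, which is why it is shown (RefSeq, GRCm38.p6, chr8:71537423-71537722, minus strand, read 5′ to 3′). Capitals mark a GAS core and 2 ISRE cores, which overlap one another.
Bst2: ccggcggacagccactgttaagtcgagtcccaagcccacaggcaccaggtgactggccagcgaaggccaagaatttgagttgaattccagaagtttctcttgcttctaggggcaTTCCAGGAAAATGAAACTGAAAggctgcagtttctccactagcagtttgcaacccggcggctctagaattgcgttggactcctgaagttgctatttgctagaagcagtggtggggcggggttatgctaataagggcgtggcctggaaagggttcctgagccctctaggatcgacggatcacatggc

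Another 6 effectors were too low to test. Ifit2 was at 0.74 to 1.77 TPM in SAP and 0.34 to 0.68 TPM in controls, so its groups did not overlap. Rsad2, or viperin, was at 0.41 to 0.95 TPM in SAP and 0.52 to 0.85 TPM in controls. Oas2 was at 0.42 to 1.56 TPM in SAP and 0.21 to 0.81 TPM in controls, and Mx1 at 0.29 to 1.04 TPM in SAP and 0.04 to 0.73 TPM in controls. Balb/c mice are known to carry a defective Mx1 allele. Oas1a and Oas1g, a pair of oligoadenylate synthetases, were listed at 0 in all 12 libraries. Of their 50-base transcript windows, 57.6% for Oas1a and 54.7% for Oas1g occur in another gene, and how the authors treated such reads is unknown.

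Guanylate-binding proteins, large GTPases that coat pathogen vacuoles and help start inflammasome signalling, were mostly low. Of 9 members 6 were tested: 2 rose (33.3%, against 19.5% of all tested genes), 0 fell and 4 did not pass, with a median log2 change of 0.37. Gbp9 was at 1.13, 2.12 and 2.66 TPM in SAP, against 0.62, 0.885 and 2.03 TPM in controls, and rose by 0.57 ± 0.17 (SE; limma adjusted p = 0.0135). Gbp4 was at 0.85, 2.48 and 3.17 TPM in SAP, against 0.78, 1.22 and 1.80 TPM in controls, and rose by 0.50 ± 0.18 (SE; limma adjusted p = 0.0380). Both overlapped between groups, and Gbp9 reached 1 TPM in only 2 control libraries and passed the filter through SAP. The Gbp4 call was lost with a pseudocount of 0.1, and when 1 library was left out it held only without SAP 13 or 14 or control 3 or 4 (highest adjusted p = 0.0834). Gbp2, an interferon gamma-inducible member of the family, was at 2.76, 3.94 and 7.01 TPM in SAP, against 2.35, 3.12 and 3.58 TPM in controls, a difference of 0.41 ± 0.18 (SE; limma adjusted p = 0.0805). Gbp3 differed by 0.34. Gbp7 was at 0.73, 2.42 and 3.33 TPM in SAP, against 2.31, 2.51 and 2.67 TPM in controls, with 3 SAP libraries above and 3 below the control range (-0.18 ± 0.19, SE; limma adjusted p = 0.463).

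Gbp10 had the lowest log2 difference of the family. It was at 1.34, 3.51 and 9.18 TPM in SAP and 4.56, 5.74 and 9.66 TPM in controls, a difference of -0.59 ± 0.29 (SE; limma adjusted p = 0.118), with 4 of 6 SAP libraries below the lowest control. Without SAP 12, which held its highest SAP value, Gbp10 was called lower (adjusted p = 0.0169). Its reads are hard to assign: 82.5% of its 50-base transcript windows occur in another gene, most of them in Gm43302, as do 90.2% of those of Gbp6. Gbp5, Gbp6 and Gbp8 were not tested and reached at most 0.73, 1.71 and 1.02 TPM in any library. In GENCODE M21 on GRCm38, Gbp2, Gbp3, Gbp5 and Gbp7 lie on chromosome 3 between 142493978 and 142638008, and Gbp4, Gbp6, Gbp8, Gbp9 and Gbp10 on chromosome 5 between 105014150 and 105293698, where the annotated spans of Gbp4, Gbp8 and Gbp9 overlap.

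The immunity-related GTPases, which break open vacuoles of intracellular parasites and bacteria, all had positive log2 changes. Of 7 tested, 4 rose (57.1%, against 19.5% of all tested genes), 0 fell and 3 did not pass, with a median log2 change of 0.45. All but Iigp1 lie on chromosome 11 in GENCODE M21. Irgm2, a regulator of the effector GTPases, was at 16.1, 20.07 and 32.5 TPM in SAP, against 9.21, 10.1 and 10.4 TPM in controls. The groups did not overlap, and Irgm2 rose by 1.03 ± 0.15 (SE; limma adjusted p = 7.87e-05). Irgm1, another regulator with a part in autophagy, was at 25.4, 35.7 and 52.07 TPM in SAP, against 23.4, 27.04 and 29.65 TPM in controls, and rose by 0.45 ± 0.14 (SE; limma adjusted p = 0.0220). Igtp, the third regulator, also named Irgm3, was at 17.1, 26.1 and 45.0 TPM in SAP, against 20.5, 21.6 and 27.7 TPM in controls, and was not past the threshold (0.34 ± 0.20, SE; limma adjusted p = 0.186). The annotated span of Igtp (chr11:58199556-58207591) overlaps that of Irgm2 (chr11:58199618-58222782), so reads in the overlap are uncertain.

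Among the effector GTPases Tgtp2 was at 1.19, 2.59 and 3.65 TPM in SAP, against 0.94, 1.08 and 1.51 TPM in controls, and rose by 0.69 ± 0.17 (SE; limma adjusted p = 0.00490). Its neighbour Tgtp1 was at 2.63, 5.18 and 9.68 TPM in SAP, against 1.84, 2.52 and 6.34 TPM in controls, and rose by 0.71 ± 0.27 (SE; limma adjusted p = 0.0496). When 1 library was left out that call held only without SAP 12, SAP 14 or control 4 (highest adjusted p = 0.108). Tgtp1 and Tgtp2 share most of their sequence: 79.4% of the 50-base windows of Tgtp1 occur in Tgtp2 and 89.8% of those of Tgtp2 in Tgtp1, so their separate levels are uncertain. Ifi47 was at 8.13 to 15.1 TPM in SAP and 7.83 to 10.7 TPM in controls (0.32, limma adjusted p = 0.0911), and Iigp1 at 27.8 to 56.7 TPM in SAP and 32.8 to 39.8 TPM in controls (0.28, limma adjusted p = 0.122). Within the high Xist libraries Igtp (0.56), Ifi47 (0.64) and Iigp1 (0.37) were called higher (limma adjusted p = 0.0457, 0.00743 and 0.0208), and without SAP 14 all 3 were as well.

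Of these GTPases 4 share a promoter arrangement that is printed here because its spacing recurs. Irgm1 held the ISRE core without a GAS core, Ifi47 held neither, and Iigp1 had no matched window. In Igtp, Irgm2, Tgtp1 and Tgtp2 a GAS core is followed after 2 bases by an ISRE core, both in capitals below, in stretches of 60 bases (RefSeq, GRCm38.p6, read 5′ to 3′). The stretches are chr11:58199491-58199550 (plus strand) for Igtp, chr11:58214882-58214941 (plus strand) for Irgm2, chr11:48992295-48992354 (minus strand) for Tgtp1 and chr11:49064254-49064313 (minus strand) for Tgtp2. The GAS core starts 45, 75, 88 and 81 bases before the annotated start in Igtp, Irgm2, Tgtp1 and Tgtp2.
Igtp: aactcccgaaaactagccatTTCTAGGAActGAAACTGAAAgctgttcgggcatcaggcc
Irgm2: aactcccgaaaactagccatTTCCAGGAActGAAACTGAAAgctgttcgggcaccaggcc
Tgtp1: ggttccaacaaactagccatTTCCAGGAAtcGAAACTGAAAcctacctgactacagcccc
Tgtp2: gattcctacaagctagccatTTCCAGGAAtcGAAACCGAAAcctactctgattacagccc

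The same spacing of the cores was found in 5 of 32851 promoter windows (0.0152%), those 4 and the window of Gm12185, a predicted gene that reached at most 0.04 TPM in any library. The spacing counted was the one seen in those 4 related genes, so the count is not an independent recurrence. In Igtp and Irgm2 the 20 bases before the GAS core are also the same. More widely, RefSeq windows were matched for 38 of the 53 members, and 22 of the 38 genes (57.89%) held the ISRE core, against 3.99% of 27025 genes with a window. The GAS core was held by 16 of the 38 (42.11%), against 9.55% of all. The 4 matched guanylate-binding protein genes and 5 of 6 matched immunity-related GTPases held the ISRE core. Among tested members with a window, it was in Ifit1, Ifit3, Isg15, Stat2, Irgm1, Irgm2, Tgtp1 and Tgtp2, which rose. Irf2, which fell, held it too. So did Ifit3b, Gbp2, Gbp3, Gbp7, Igtp, Bst2, Ddx58, Ifih1 and Eif2ak2, which were not past the threshold. Windows of Irf7, Irf9, Oasl1, Oasl2, Ifi44, Dtx3l, Xaf1 and Trim25, which all rose, held neither core. That says only that these letters are not in this window. The sequences are of the reference strain, not of Balb/c, and a match is no measure of binding.

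**Figure D3:**
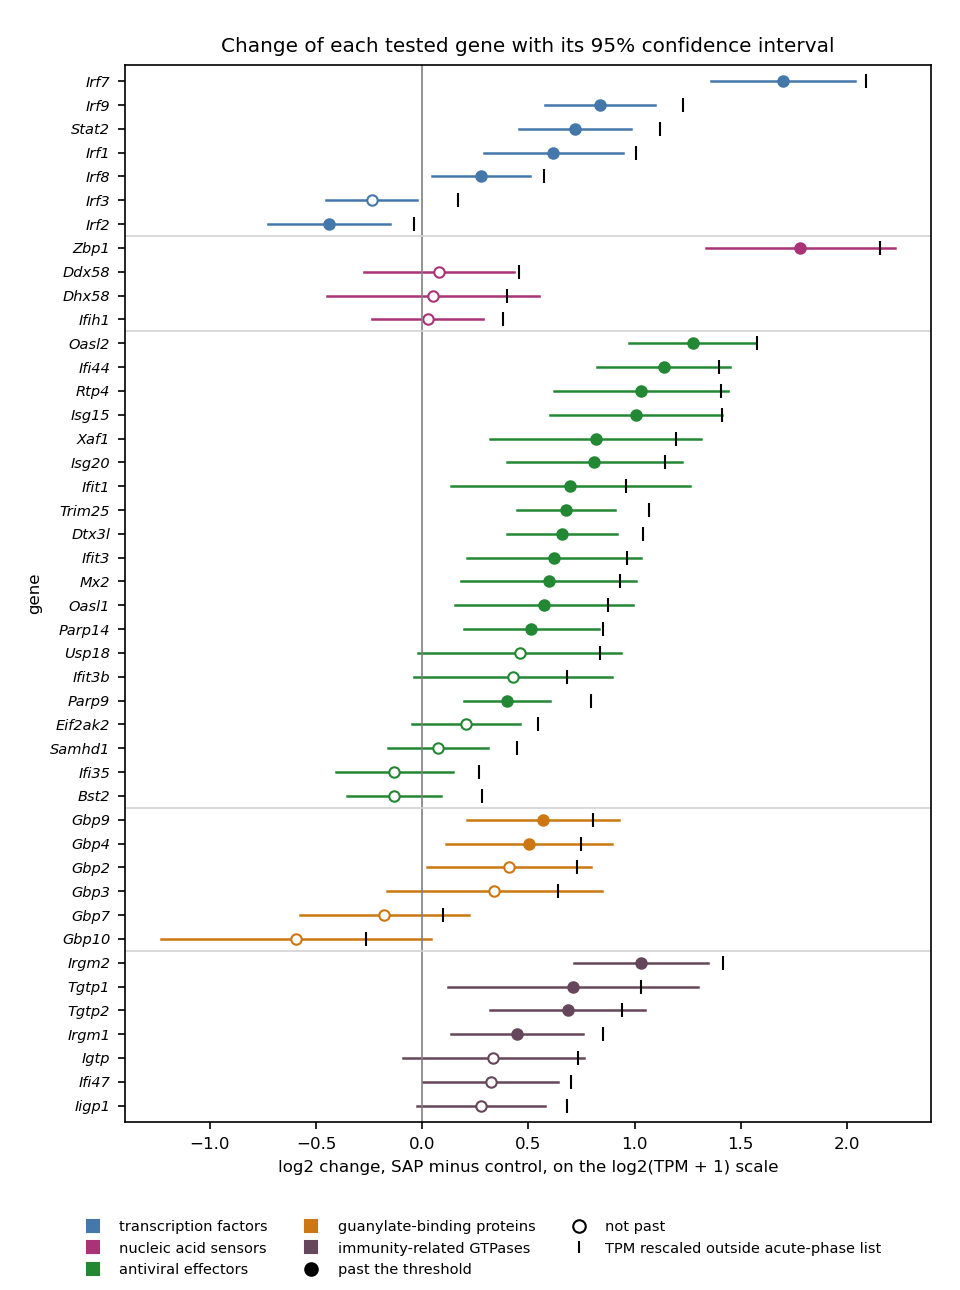
Log2 change (SAP minus control, x axis) of the 44 tested genes with 95% confidence intervals; filled points passed the threshold, open points did not, and black ticks give the change with TPM rescaled outside the acute-phase list. Irf2 is the filled point left of 0 (-0.44), and the ticks lie to the right of every point.

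Other parts of the pathway were measured with lists set by function, though chosen with earlier results of these data known. The interferon genes themselves gave little or no value: of 21 ligand genes, 19 were listed at 0 in every library, and Ifng and Ifnk reached at most 0.41 and 0.19 TPM, in control libraries only. All 21 were listed at 0 in all 6 SAP libraries. With no depth given, and with the treatment of reads shared between related genes unknown, a listed 0 does not show that a transcript was absent. Of 9 tested genes of receptors and JAK-STAT signalling 2 rose, 0 fell and 7 did not pass (22.2% higher, against 19.5% of all tested genes; median log2 change 0.13). Ifnar1, a chain of the type I receptor, averaged 17.5 ± 1.27 TPM in SAP and 11.3 ± 1.02 TPM in controls (SD, n = 6 each) and rose by 0.59 (limma adjusted p = 2.85e-05), and Jak1 rose by 0.27.

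Among negative regulators 4 of 9 tested genes rose (44.4%, against 19.5% of all tested genes), 0 fell and 5 did not pass. Isg15 and Usp18 stand in this list too, and without them 3 of 7 rose. Socs3, the feedback inhibitor of cytokine receptors, averaged 33.5 ± 13.5 TPM in SAP and 2.01 ± 0.589 TPM in controls (SD, n = 6 each), a log2 change of 3.43 (limma adjusted p = 3.39e-07), and the phosphatase gene Ptpn1 rose by 0.89. Socs1, the more specific inhibitor of interferon signalling, reached at most 1 TPM and was not tested. Of 10 tested sensor adaptors and kinases 2 rose and 0 fell (20% higher, near the share of all genes). These were Myd88, the Toll-like receptor adaptor (0.93), and Sting1, the adaptor of cytosolic DNA sensing (0.47), while Mavs, the adaptor of RIG-I and MDA5, differed by -0.06.

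Of 39 tested genes in a list of other interferon-induced genes 18 rose, 2 fell and 19 did not pass (46.2% higher, against 19.5% of all tested genes, median log2 change 0.29). Ifitm3, a membrane protein that blocks viral entry, averaged 1684 ± 93.8 TPM in SAP and 834 ± 57.2 TPM in controls (SD, n = 6 each; 1.01, limma adjusted p = 8.07e-08). Ifitm2 rose by 1.12. The 2 that fell were Lgals9, a galectin (-0.70), and Nmi (-0.42). The chemokine gene Cxcl10, a common readout of interferon gamma, differed by 0.22 and was not past the threshold.

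SAP libraries differed widely in how far these genes rose. The median difference of the 44 members from the control mean was 0.44, 0.50, 0.81, 0.33, -0.01 and 0.89 in SAP 10, 11, 12, 13, 14 and 15, against -0.09 to 0.19 over the control libraries. SAP 12 and SAP 15 stood highest and SAP 14 lay within the control range. SAP 15 held the highest SAP value for 20 members and SAP 12 for 17, while SAP 14 held the lowest for 33. The median of all tested genes was also lowest in SAP 14, at -0.23. The share of TPM taken by acute-phase genes was lowest in SAP 12 (22.5%) and SAP 15 (23.4%), and highest in SAP 14 (36.8%). It was 29.6% in SAP 10, 26.9% in SAP 11 and 27.1% in SAP 13, so its order was not the reverse of the medians throughout. With TPM rescaled outside that list the medians were 1.10 in SAP 12, 1.14 in SAP 15 and 0.43 in SAP 14, and the order of the 6 SAP libraries was the same. On that scale SAP 14 held the lowest value for 19 members and SAP 13 for 10. Leaving out SAP 14 gave 31 members called higher (70.5%, against 21.6% of all tested genes), with Gbp2, Ifit3b, Igtp, Iigp1 and Ifi47 in addition to the 26. Leaving out SAP 15 gave 21 (47.7%, against 17.9%).

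**Figure D4:**
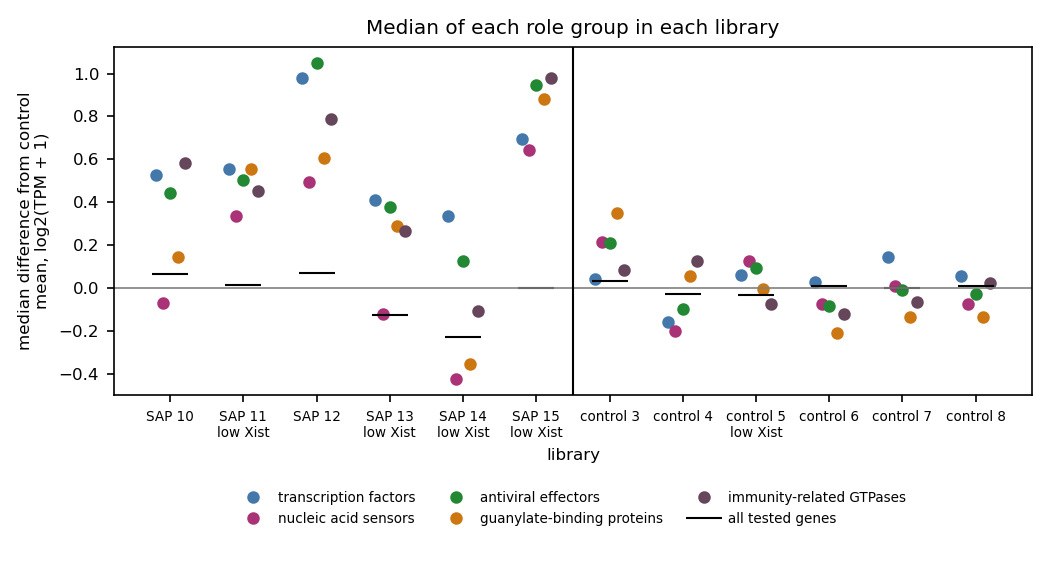
Median difference from the control mean (log2(TPM + 1), y axis) of each role group in each of 6 SAP and 6 control libraries (x axis), with the median of all tested genes as a bar. SAP 12 and SAP 15 hold the 2 highest medians in each of the 5 role groups, and SAP 14 is the only SAP library with 3 groups below 0.

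Within the 7 high Xist libraries 23 members were called higher (52.3%, against 18.0% of all tested genes) and 0 lower (against 16.1%), and 20 of the 23 were among the 26 called over all libraries. Gbp9, Ifit1, Ifit3, Isg20, Tgtp1 and Xaf1 were not called there. The median was 0.63 there. Low Xist libraries hold control 5 alone as a control, so no test was made within them, and the median over members was 0.50. Scaling moved the counts more. Quantile normalization gave 30 members higher and 1 lower (all genes, 2950 higher and 2591 lower), and TMM-like scaling 29 higher and 1 lower (2784 and 2734). With TPM rescaled outside the acute-phase list 39 of 44 members (88.6%) were called higher and 0 lower, against 55.5% of all tested genes called higher (6287, with 1208 lower). That rescaling moved the median of all tested genes to 0.32. The median of the members moved with it to 0.84, so their distance from all genes was 0.53, against 0.54 on the deposited scale.

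The tested markers of neutrophils and monocytes were mostly higher in SAP alongside the interferon-inducible genes, while those of B cells were not. The part of these cells in the result was not tested. Of 13 neutrophil markers 4 were tested and 3 rose, with summed levels of 37.6 to 113 TPM in SAP and 5.45 to 21.4 TPM in controls. Of 9 monocyte markers 5 were tested, 4 rose and 1 fell (Lyz2, -0.45), with sums of 62.3 to 97.7 TPM in SAP and 42.2 to 63.1 TPM in controls. Retnlg, Itgam and Ms4a4c reached 1 TPM in 6 SAP and 0 control libraries. They were thus tested only because they were high in SAP, and their calls add little. Fcgr1 reached 1 TPM in 2 control libraries, and the T and NK cell marker Gzma in 1, so the same limit bears on them. Of the markers too low to test, Cxcr2 (0.29 to 0.89 TPM in SAP and 0.04 to 0.13 TPM in controls), Mmp8 (0.35 to 0.68 and 0 to 0.10 TPM), Mmp9 (0.44 to 0.92 and 0 to 0.22 TPM) and F13a1 (0.18 to 0.59 and 0 to 0.10 TPM) had every SAP value above every control value. The other neutrophil and monocyte markers too low to test, Mpo, Elane, Ly6g, Camp, Ngp, Ltf, Ly6c2, Ccr2 and Chil3, overlapped between groups. Ly6g was at 0.12 to 0.70 TPM in SAP and 0 to 0.62 TPM in controls. Ccr2 was at 0.07 to 0.67 TPM in SAP and 0.09 to 0.36 TPM in controls. Among these only Camp and Ltf had lower means in SAP (0.09 and 0.14 TPM) than in controls (0.37 and 0.38 TPM). Of 14 T and NK cell markers 2 were tested and rose, Gzma and Ccl5, with sums of 52.6 to 153 TPM in SAP and 4.75 to 11.5 TPM in controls. Without Ccl5 the list summed to 3.08 to 9.20 TPM in SAP and 2.30 to 4.85 TPM in controls. Of 6 B cell markers 2 were tested, 0 rose and 1 fell (Igkc, -0.66), with sums of 9.57 to 14.2 TPM in SAP and 11.2 to 30.9 TPM in controls; in the high Xist libraries 0 fell. Plasmacytoid dendritic cell markers, of a cell known for type I interferon, summed to 2.58 to 4.73 TPM in SAP and 2.52 to 4.20 TPM in controls, most of it Tcf4, which was at 1.92 to 3.67 TPM in SAP and 1.86 to 3.49 TPM in controls. Of 10 Kupffer cell markers 1 rose (Marco) and 3 fell (Clec4f, Timd4 and Vsig4), with sums of 212 to 480 TPM in SAP and 242 to 361 TPM in controls. Marco was at 34.1 to 76.6 TPM in SAP and 0.43 to 1.52 TPM in controls, so it raised the SAP sums. It reached 1 TPM in 3 control libraries, so the limit given for Fcgr1 bears on it too. In the high Xist libraries 2 rose and 0 fell, and the median log2 change was 0.41 there, against -0.06 over all libraries. Of the 2 SAP libraries there, SAP 10 held the highest SAP value of all 10 markers. Of 10 sinusoidal endothelial markers 4 rose and 1 fell, with sums of 152 to 214 TPM in SAP and 132 to 184 TPM in controls, and in the high Xist libraries 6 rose and 0 fell.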

How the data were processed

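Liver RNA-seq of 6 SAP and 6 control libraries was analysed from 1 deposited table of 55487 rows with 12 sample columns, all used. The deposited values were read as TPM, inferred from totals of 993412 to 995793 per library, since no header or label names the unit. The submitters' processing notes name edgeR with no version or role. The sources used here name no aligner, build, annotation, strandedness or handling of shared reads. Depth cannot be read from TPM.

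limma 3.58.1 (R 4.3.3, trend) was fitted to log2(TPM + 1) of the 11335 genes that reached 1 TPM in 6 or more libraries, with group as the only term. P-values are two-sided and Benjamini-Hochberg adjusted over all 11335. For a repeated symbol the row with the highest median was kept; no listed gene had one. Fold changes on this scale understate changes of low genes. The script was checked on simulated data. Members and lists were chosen with earlier results of these data known. Every member is accounted for; values by library group are given, in each role group, for the tested members with the 3 smallest and the single largest adjusted p. Pathway lists name up to 2 genes per direction by adjusted p. Other genes given in detail were chosen after their values were seen. Protein identities were not analysed here; shared 50-base windows of GENCODE M21 transcripts are given in their place. Alternatives were quantile and TMM-like scaling, rescaling outside 28 acute-phase genes, no filter, a mean level of 5 TPM or more, a pseudocount of 0.1, limma without trend or robust, the highest mean for repeated symbols, a term for the Xist split, only the high Xist libraries, and leaving out each library.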

Additional observations from a re-analysis of the deposited data

Results flagged for a closer look

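In 3 of the 88 groups of 6 values checked (44 members in SAP and in control livers), 1 library lay far from the other 5; chance alone flags about 1 in 20 such groups. All 3 were control libraries. Gbp9 was at 2.03 TPM in control 3, against 0.62 to 1.12 TPM in the other controls. Igtp was at 27.7 TPM in control 8, against 20.5 to 22.3 TPM in the others. Tgtp1 was at 6.34 TPM in control 4, against 1.84 to 3.14 TPM in the others.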

How the results depend on the processing

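No paired analysis was possible because the SAP and control libraries share no replicate numbers. Of the 26 members called higher, 15 stayed so in every alternative in which they were tested. Over 997 values of single members under 23 alternatives, 900 stayed called or uncalled as before, 62 lost a call, 32 gained one and 3 reversed. The 900 include changes of sign in members called in neither fit, as in Irf3 with TPM rescaled outside the acute-phase list. With TPM rescaled outside the acute-phase list, which raises every gene in SAP against controls by construction, all genes gave 6287 higher (55.5%) and 1208 lower. The members' median was then 0.84, with 0 lower. Transcription factors had a median of 1.01 with 0 lower, and immunity-related GTPases a median of 0.85 with 7 of 7 higher. Guanylate-binding proteins gave 4 of 6 higher and sensors 3 of 4. Receptors gave 8 of 9 higher, negative regulators 9 of 9, adaptors 9 of 10 and other interferon-induced genes 30 of 39, with 1 lower. Ifi35 (0.27) and Bst2 (0.28) reversed there, and Bst2 (0.25) also with quantile normalization, which gave 7 immunity-related GTPases and 4 receptor genes higher. In the high Xist libraries alone 1829 genes were lower, with 0 members and 0 transcription factors lower, 1 guanylate-binding protein and 4 receptor genes higher, and 1 other interferon-induced gene lower. With no filter 1 guanylate-binding protein, 2 immunity-related GTPases and 1 adaptor were higher, and 8.85% of all genes were. A mean of at least 5 TPM left fewer genes to test, with 16 members higher (55.2%, against 21.2% of all genes). Also higher were 9 effectors, 0 guanylate-binding proteins, 2 immunity-related GTPases, 1 adaptor and 10 other interferon-induced genes. The median of guanylate-binding proteins, then Gbp10 alone, was -0.59. A pseudocount of 0.1 and the Xist term each left 1 guanylate-binding protein higher. The cause was not tested for the other changes.

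Leaving out each library in turn gave 21 to 31 members higher and 1 to 2 lower (all genes, 1956 to 2452 higher and 2537 to 3062 lower). Transcription factors gave 4 to 5 higher and 1 to 2 lower. Guanylate-binding proteins gave 1 to 3 higher and 0 to 1 lower, and immunity-related GTPases 3 to 7 higher. The members' median ran between 0.43 and 0.64. The median of the sensors ran between -0.019 (without SAP 15) and 0.19 (without SAP 14), and was -0.01 without SAP 12. Depth is unknown, so what it limits cannot be given.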
